A study of Bombyx mori with 4 samples.

Results

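The genes described here code for co-chaperones, chaperonins and prolyl isomerases, the helper proteins of protein folding. They were chosen by product name, as the gene models whose best protein hit was named DnaJ or Hsp40, T-complex or chaperonin, prefoldin, Samui, an HSP70- or HSP90-binding co-chaperone, cyclophilin, peptidyl-prolyl isomerase or FK506-binding protein. The mitochondrial chaperonin BGIBMGA007349, a heat shock protein by name, was not taken in. The rule gave 43 of the 5558 gene models listed. By class, 20 were J-domain proteins, 7 chaperonins, 3 prefoldin subunits, 5 partners of HSP70 or HSP90, 6 cyclophilins and 2 FK506-binding proteins. For 30 of them the most similar protein came from silkworm, for 10 from the monarch butterfly and for 3 from other species, so a name is that of this hit.

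HSP70 and HSP90 are ATP-driven chaperones that do little without partners. J-domain proteins bring unfolded clients to HSP70 and switch on its ATPase, nucleotide exchange factors such as BAG-domain proteins reset it, and Cdc37 and p23 serve HSP90. The cytosolic chaperonin is a ring of different subunits that folds actin and tubulin, which prefoldin hands to it. Cyclophilins and FK506-binding proteins turn the peptide bond before proline, a slow step of folding. Many of these genes are used in unstressed cells of every tissue, and in animals some of them are transcribed more during heat shock together with the heat shock proteins.

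The midgut of fifth-instar silkworm larvae (Bombyx mori) on day 2 of that last larval stage was sequenced in 4 libraries. The groups were 932 heat, 932 control, HY heat and HY control, where 932 is the variety labelled heat-tolerant, HY the one labelled heat-sensitive, and heat stands for exposure to high temperature. The temperature, the time of exposure and the number of larvae pooled are not given in the sources used here. With 1 library a group, no ratio below has a replicate check and no test within a variety or within a condition was possible. Values are in RPM, tags for every 1000000 tags of the library, without correction for gene length, so levels are compared between libraries for the same gene, never between genes. A log2 ratio was taken after adding 1 to both values, which understates the change of low genes. Genes were called higher or lower where this ratio was at least 2-fold, provided that 1 of the libraries compared had 1 RPM or more, which is called the floor here. Square brackets hold an exact 95% interval that covers counting error only and was computed from the tags themselves, with nothing added. Where a gene was listed at 0 its ratio rests on the added 1, and no fold is given.

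The library totals behind the values were 5799075 to 6139297 tags, of which the listed gene models took 11.6% to 18.6%, so that 1 RPM stood for about 6 tags. Midgut genes by product name, such as trypsins, lipases and aminopeptidase N, were present as labelled, with 62 of 85 above 0 in all libraries and a summed level of 31578 RPM in 932 heat, 59090.3 in 932 control, 16327 in HY heat and 10343 in HY control. The summed level of 10 muscle genes was 641 to 856 RPM over the libraries, that of 14 fat body genes 37.4 to 72.8, that of 11 haemocyte genes 2.58 to 8, that of 2 silk gland genes 24.3 to 54.7 and that of 19 cuticle genes of epidermis and trachea 1489 to 3811. Of the fat body genes 4, and of the haemocyte genes also 4, were listed at 0 in every library. The part of these differences in the ratios below was not tested. In dissected tissue, fewer cells of a type and less RNA per cell cannot be told apart.

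Of the 43 genes, 25 were above 0 in all libraries, or 58.1%, beside 47.1% of all gene models. In at least 1 library 34 reached 1 RPM, or 79.1%, beside 57.8% of all, and 11 reached 10 RPM in at least 1. The 9 that never reached 1 RPM were DnaJ-5, DnaJ-6, DnaJ-9, DnaJ-14, DnaJ-18, DnaJ-23, the chaperonin delta subunit, 1 prefoldin subunit and the FKBP59 homologue, and of these DnaJ-5 and DnaJ-18 were listed at 0 throughout. The 4 genes with 10 RPM or more in every library were DnaJ-26, the chaperonin zeta subunit, a further chaperonin and cyclophilin-10. Together the 43 genes summed to 336 RPM in 932 heat and 256 in 932 control, and to 430 RPM in HY heat and 387 in HY control. The lower sums in 932 rested on a single gene, the HSP70-interacting protein BGIBMGA010635. Without it 932 had the higher sum under heat, with 334 RPM in 932 heat against 272 in HY heat. The control sums were then close, at 254 RPM in 932 control and 249 in HY control.

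**Figure D1:**
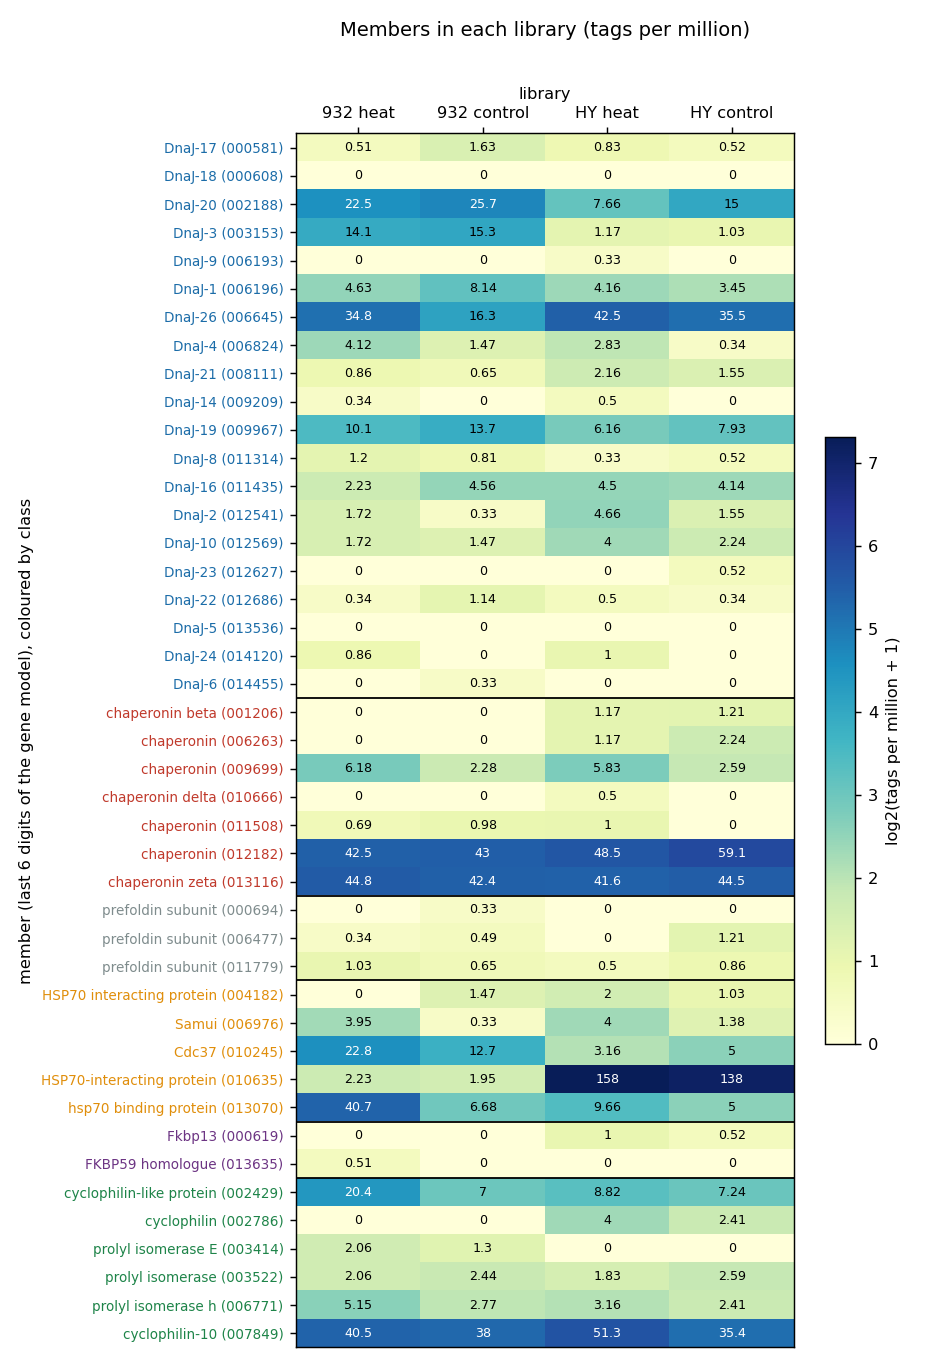
Each cell gives the RPM of 1 gene (down) in 1 library (across), shaded by the log2 of the value plus 1, with names coloured and ruled off by class. The HSP70-interacting protein reads 2.23 and 1.95 in the 932 libraries against 158 and 138 in the HY libraries, and the chaperonin zeta subunit lies between 41.6 and 44.8 in all 4.

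The first question was which of these genes differed after heat in the heat-tolerant variety. Above the floor in 932 were 26 genes, of which 7 were at least 2-fold higher in 932 heat than in 932 control and 1 was lower. Among all genes above the floor, 11.1% were called higher and 9.86% lower, which for the folding helpers was 26.9% and 3.85%. The 7 were the HSP70-binding protein, Samui, the cyclophilin-like protein BGIBMGA002429, the chaperonin BGIBMGA009699, DnaJ-26, DnaJ-4 and DnaJ-2. The median log2 ratio of the 26 genes was 0.13, beside 0.02 for all genes. Counting intervals lay wholly above 0 for 8 genes, these 7 and Cdc37, and wholly below 0 for DnaJ-1 and DnaJ-16. That was 8 and 2 of the 25 genes with values above 0 in both 932 libraries, beside 20.6% above and 20.5% below among all such genes.

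In the heat-sensitive variety 29 genes were above the floor, and 5 were at least 2-fold higher in HY heat than in HY control, with 1 lower. The background for HY was 14.1% higher and 4.56% lower over all genes, against 17.2% and 3.45% here, so the share was near that of all genes. The 5 were DnaJ-4, DnaJ-2, Samui, DnaJ-24 and the chaperonin BGIBMGA011508, and the last 2 were listed at 0 in HY control and read 1 RPM in HY heat. All genes had a median log2 ratio of 0.34 in HY, and the folding helpers 0.25, or -0.08 relative to all genes. Centred on the median gene, 1 gene, DnaJ-4, was at least 2-fold higher, and DnaJ-20 and the prefoldin subunit BGIBMGA006477 were lower, beside 4.52% higher and 8.61% lower of all genes. Counting intervals lay above 0 for 7 genes in HY and below 0 for 2, DnaJ-20 and the chaperonin BGIBMGA012182. Of the 26 genes that could have an interval this was 26.9% and 7.69%, beside 32.4% and 8.12% of all genes, so it was no more than the background.

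Among the partners of HSP70 and HSP90, the HSP70-binding protein BGIBMGA013070 had the highest log2 heat ratio of the 43 genes in 932 with 1 added, while with 0.1 added Samui was higher, at 3.24 against 2.59. In human the protein of this name is a nucleotide exchange factor that loosens ADP from HSP70. It read 40.7 RPM in 932 heat against 6.68 in 932 control, and 9.66 RPM in HY heat against 5 in HY control. The log2 ratio was 2.44 [2.12 to 3.12] in 932 and 0.83 [0.28 to 1.65] in HY, short of 2-fold. Relative to the median gene these were 2.42 and 0.49. The fold of the RPM themselves, with nothing added, was 6.09 in 932 and 1.93 in HY, and every fold given below for a single gene is of this kind. The 932 heat library stood above the other 3, which lay between 5 and 9.66.

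Samui (BGIBMGA006976), a BAG-domain protein first described as a cold-inducible gene of silkworm eggs, read 3.95 RPM in 932 heat against 0.33 in 932 control, and 4 RPM in HY heat against 1.38 in HY control. The heated libraries of the 2 varieties were alike and both control libraries were lower. Its log2 ratio was 1.90 [1.58 to 6.73] in 932, where control held 2 tags, and 1.07 [0.33 to 2.90] in HY. In RPM it was 12.0-fold higher in 932 heat and 2.90-fold higher in HY heat. Relative to the median gene the HY ratio was 0.73.

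Cdc37 (BGIBMGA010245), which recruits protein kinases to HSP90, read 22.8 RPM in 932 heat against 12.7 in 932 control, a log2 ratio of 0.80 [0.43 to 1.27]. In HY it read 3.16 RPM in heat against 5 in control, a log2 ratio of -0.53 [-1.58 to 0.22], which was within counting error of 0. The upper end of this interval was below the HY median of all genes, 0.34. Relative to that median gene the HY ratio was -0.87. Both 932 libraries were above both HY libraries.

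The other partners were both named as HSP70-interacting proteins. The first, BGIBMGA010635, read 2.23 RPM in 932 heat against 1.95 in 932 control, and 158 RPM in HY heat against 138 in HY control. Its log2 heat ratios were 0.13 [-1.06 to 1.45] in 932 and 0.19 [0.05 to 0.33] in HY, both small beside the gap between the varieties. Relative to the median gene the HY ratio was -0.15. BGIBMGA004182, with tag numbers of 12 or fewer, was listed at 0 in 932 heat against 1.47 RPM in 932 control and read 2 RPM in HY heat against 1.03 in HY control. It was the 1 gene counted lower in 932.

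J-domain proteins made up the largest class. At least 2-fold higher after heat were 3 of the 12 above the floor in 932 and 3 of the 11 in HY. Of all genes above the floor, 11.1% were higher in 932 and 14.1% in HY. With 1 added, no gene of the class was 2-fold lower, beside 9.86% and 4.56% of all genes. In RPM with nothing added, DnaJ-16 was 2.04-fold lower in 932 heat than in 932 control. DnaJ-17 was 3.20-fold and DnaJ-22 3.35-fold lower there, on 10 tags or fewer. The 3 higher genes in HY included DnaJ-24, listed at 0 in HY control and on 6 tags in HY heat. Relative to the median gene, DnaJ-4 alone stayed 2-fold higher in HY, while all 3 higher genes in 932 did. The class median was -0.15 in 932 and 0.25 in HY. DnaJ-4 (BGIBMGA006824) read 4.12 RPM in 932 heat against 1.47 in 932 control, and 2.83 RPM in HY heat against 0.34 in HY control. Its log2 ratios were 1.05 [0.33 to 2.78] and 1.52 [0.96 to 6.19], the last resting on 2 tags in HY control. DnaJ-2 (BGIBMGA012541) read 1.72 RPM in 932 heat against 0.33 in 932 control, and 4.66 RPM in HY heat against 1.55 in HY control. In both varieties the heated library was the higher one, with log2 ratios of 1.03 [0.17 to 5.63] and 1.15 [0.46 to 2.86], and the HY ratio was 0.81 relative to the median gene.

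DnaJ-26 (BGIBMGA006645), whose hit is a partial sequence, was 2-fold higher in 932 alone by the counting rule. It read 34.8 RPM in 932 heat against 16.3 in 932 control, and 42.5 RPM in HY heat against 35.5 in HY control. The 932 control library was the low one, and the other 3 lay between 34.8 and 42.5. The log2 ratio was 1.05 [0.74 to 1.46] in 932 and 0.25 [-0.01 to 0.53] in HY.

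Other J-domain genes stood lower after heat without reaching 2-fold on the log2 scale with 1 added. DnaJ-20 (BGIBMGA002188) read 22.5 RPM in 932 heat against 25.7 in 932 control, and 7.66 RPM in HY heat against 15 in HY control, a log2 ratio of -0.19 [-0.54 to 0.15] in 932 and -0.89 [-1.52 to -0.44] in HY. DnaJ-1 (BGIBMGA006196) read 4.63 RPM in 932 heat against 8.14 in 932 control, a log2 ratio of -0.70 [-1.55 to -0.11], and 4.16 RPM in HY heat against 3.45 in HY control. DnaJ-16 (BGIBMGA011435) read 2.23 RPM in 932 heat against 4.56 in 932 control, and 4.5 RPM in HY heat against 4.14 in HY control. For these genes 1 variety had a counting interval below 0 and the other did not.

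DnaJ-19 (BGIBMGA009967) was lower in both heated libraries within counting error of 0. It read 10.1 RPM in 932 heat against 13.7 in 932 control, and 6.16 RPM in HY heat against 7.93 in HY control. Relative to the median gene its log2 ratios were -0.42 in 932 and -0.66 in HY. DnaJ-3 (BGIBMGA003153) had log2 heat ratios of -0.11 [-0.57 to 0.32] and 0.10 [-1.63 to 2.02], at 14.1 RPM in 932 heat against 15.3 in 932 control and 1.17 RPM in HY heat against 1.03 in HY control. DnaJ-24 (BGIBMGA014120) was listed at 0 in both control libraries and read 0.86 RPM in 932 heat and 1 RPM in HY heat, on 5 and 6 tags. The remaining J-domain genes above the floor, DnaJ-8, DnaJ-10, DnaJ-17, DnaJ-21 and DnaJ-22, had heat ratios between -0.80 and 0.63 and intervals that spanned 0 in both varieties.

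Among the chaperonins, the zeta subunit (BGIBMGA013116) was close to level over the libraries. It read 44.8 RPM in 932 heat against 42.4 in 932 control, and 41.6 RPM in HY heat against 44.5 in HY control. The log2 ratios were 0.08 [-0.17 to 0.33] and -0.09 [-0.35 to 0.16], on 250 to 261 tags a library. The chaperonin BGIBMGA012182 read 42.5 RPM in 932 heat against 43 in 932 control, a log2 ratio of -0.01 [-0.27 to 0.24], and 48.5 RPM in HY heat against 59.1 in HY control, a log2 ratio of -0.28 [-0.52 to -0.06]. Relative to the median gene of HY these 2 stood at -0.43 and -0.62.

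The chaperonin BGIBMGA009699 was higher in both heated libraries, at 6.18 RPM in 932 heat against 2.28 in 932 control and 5.83 RPM in HY heat against 2.59 in HY control. Its log2 ratios were 1.13 [0.51 to 2.44] in 932 and 0.93 [0.26 to 2.15] in HY, so it passed 2-fold in 932 and was just short of it in HY, where it stood at 0.59 relative to the median gene. The hit is named chaperonin only, which does not say whether the protein belongs to the cytosolic ring or to mitochondria. BGIBMGA011508, also named chaperonin only, read 0.69 RPM in 932 heat against 0.98 in 932 control, and 1 RPM in HY heat with 0 listed in HY control. The delta subunit (BGIBMGA010666) was listed at 0 except for 0.50 RPM in HY heat. A listed 0 can stand for 0 or 1 tag, and so it does not show that a gene was silent.

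Prefoldin was near the limit of the depth. The subunits read at most 1.03 RPM in 932 heat and 0.65 in 932 control, and at most 0.50 RPM in HY heat and 1.21 in HY control. The gene counted lower in HY, BGIBMGA006477, was listed at 0 in HY heat against 1.21 RPM in HY control, which was 7 tags, and read 0.34 RPM in 932 heat against 0.49 in 932 control. BGIBMGA011779 read 1.03 RPM in 932 heat against 0.65 in 932 control, and 0.50 RPM in HY heat against 0.86 in HY control, within counting error in both varieties.

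Of the prolyl isomerases, 1 of 5 cyclophilins above the floor in 932 was at least 2-fold higher after heat, and none of 5 in HY. The shares of all genes were 11.1% in 932 and 14.1% in HY. The cyclophilin-like protein BGIBMGA002429 read 20.4 RPM in 932 heat against 7 in 932 control, and 8.82 RPM in HY heat against 7.24 in HY control. The log2 ratio was 1.42 [1.03 to 2.08] in 932 and 0.25 [-0.33 to 0.90] in HY. As with the HSP70-binding protein, 932 heat stood alone above 3 libraries that lay between 7 and 8.82.

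Cyclophilin-10 (BGIBMGA007849) read 40.5 RPM in 932 heat against 38.0 in 932 control, a log2 ratio of 0.09 [-0.17 to 0.36]. In HY it read 51.3 RPM in heat against 35.4 in control, a ratio of 0.52 [0.28 to 0.80], or 0.19 relative to the median gene. The spliceosome-associated isomerase H (BGIBMGA006771; role known from human) read 5.15 RPM in 932 heat against 2.77 in 932 control, and 3.16 RPM in HY heat against 2.41 in HY control, both within counting error. Isomerase BGIBMGA003522 lay between 1.83 and 2.59 RPM in all libraries. Of the FK506-binding proteins, Fkbp13 (BGIBMGA000619) was listed at 0 in both 932 libraries and read 1 RPM in HY heat against 0.52 in HY control. The FKBP59 homologue (BGIBMGA013635), in fly a partner of HSP90, read 0.51 RPM in 932 heat and was listed at 0 elsewhere.

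**Figure D2:**
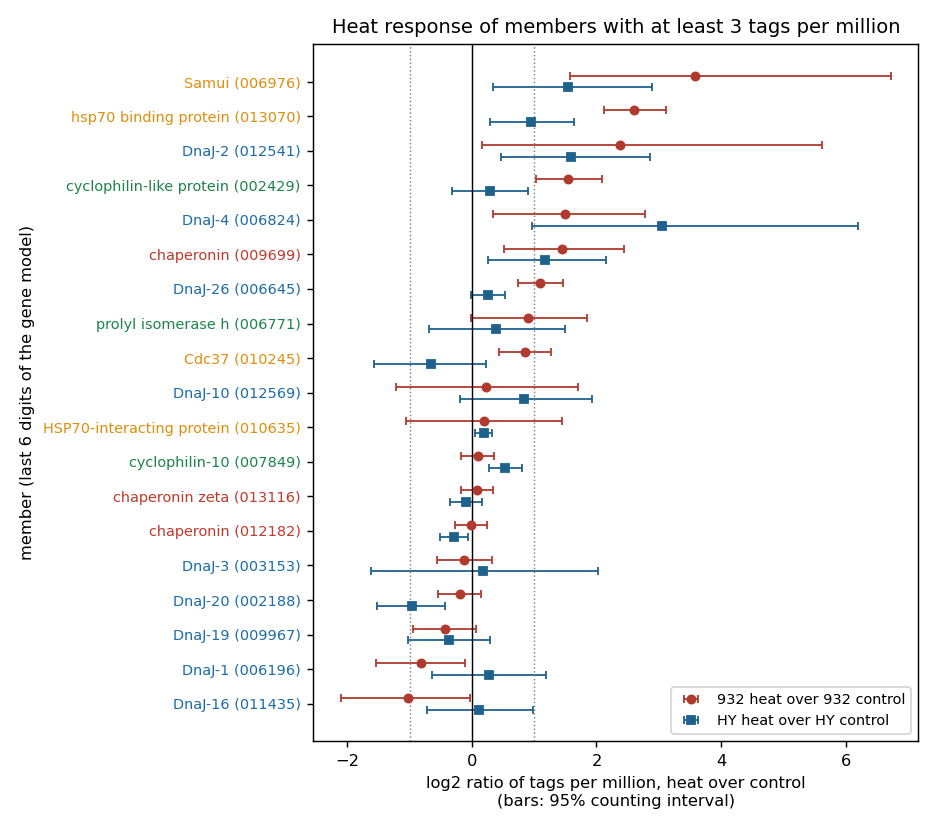
Log2 ratio of the RPM, heat over control and with no 1 added, for the 19 genes with at least 3 RPM in 1 library and values above 0 in all 4; circles are 932 and squares HY, bars are exact 95% counting intervals, and dotted lines mark 2-fold. Samui, the HSP70-binding protein, DnaJ-2, DnaJ-4 and the chaperonin BGIBMGA009699 lie right of 0 in both varieties, while the chaperonin zeta subunit and DnaJ-3 straddle 0 in both.

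The heat comparisons of 932 and HY share no library, so they can be set side by side. Of 21 genes above the floor in both, 3 were at least 2-fold higher in both, namely Samui, DnaJ-4 and DnaJ-2. Over all genes above the floor in both, 2.56% were, against 14.3% here, and with centring on the median gene the count was 1, DnaJ-4, beside 0.998% of all genes. Each of the 3 rested on 2 tags in a control library. Across the 21 genes Pearson's r of the log2 heat ratios was 0.49 and Spearman's rho 0.59, and across all 2304 genes they were 0.14 and 0.24. These are correlations across genes, which share the libraries and are not replicates.

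The heat ratio in 932 minus that in HY was at least 2-fold above 0 for 3 of 34 genes and at least 2-fold below 0 for 3. The background was 8.09% and 18.8% of all genes, against 8.82% in each direction here. The 3 with the greater response in 932 were the HSP70-binding protein, with a difference of 1.61, Cdc37, with 1.33, and the cyclophilin-like protein BGIBMGA002429, with 1.17. Those with the smaller response, the HSP70-interacting protein BGIBMGA004182, the chaperonin BGIBMGA011508 and DnaJ-17, had at most 12 tags in any library, and the first 2 were listed at 0 in 1 of them. After centring each heat ratio on its median gene, 7 genes were above and 1 below, or 20.6% and 2.94%, beside 14.3% and 10.4% of all genes. With 1 library a group, no test of these differences could be made.

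**Figure D3:**
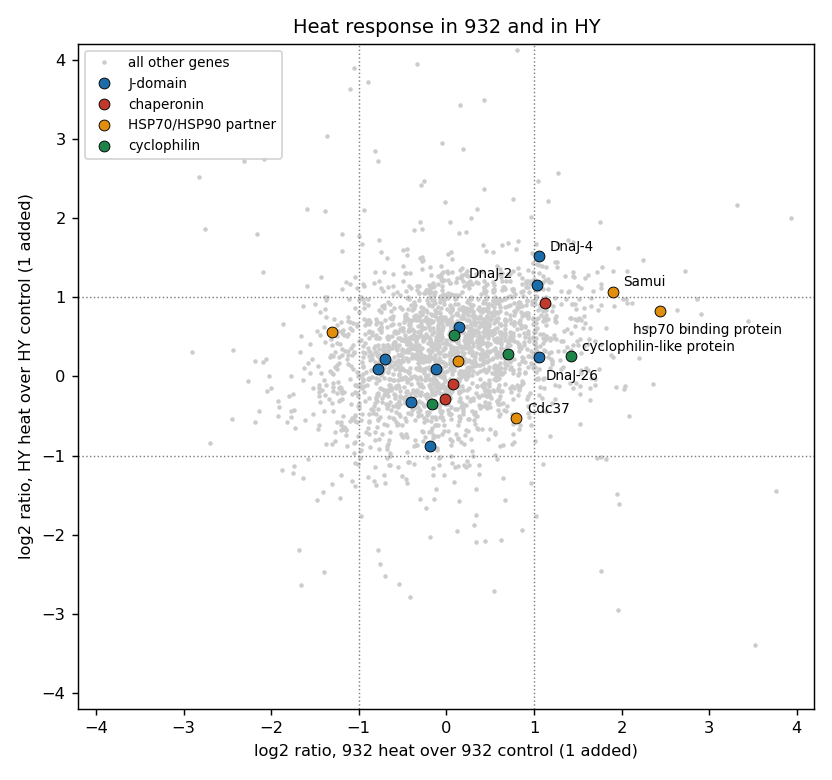
Log2 heat ratio, with 1 added, in 932 (across) and in HY (up) for 2304 genes above the floor in both varieties, with the 21 folding helpers coloured by class; dotted lines mark 2-fold and 8 genes lie outside the axes. Samui, DnaJ-4 and DnaJ-2 sit past 2-fold in both, and the HSP70-binding protein and the cyclophilin-like protein sit past it in 932 only.

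The next comparison asked how the varieties differed without heat. In 932 control 4 of 29 genes were at least 2-fold higher than in HY control and 5 were lower, or 13.8% and 17.2%. Among all genes 17.9% were called higher and 15.1% lower, so the shares were close to the background. Under heat 6 of 31 genes were higher in 932 and 7 were lower, or 19.4% and 22.6%, beside 14.1% and 20.8% of all genes. The median log2 ratio of all genes under heat was -0.26, and after centring on it 6 genes were higher and 3 lower, beside 17.9% and 11.8% of all genes.

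Control and heat comparisons of the varieties share no library either, so a gap seen in both was read in separate pairs. Of 26 genes above the floor in both, 3 were at least 2-fold higher in 932 under both conditions (background 8.41%) and 4 were at least 2-fold lower under both (background 9.43%), or 11.5% and 15.4%. The HSP70-interacting protein BGIBMGA010635 had the largest gap among the 43 genes. With 2.23 RPM in 932 heat against 158 in HY heat it was 70.6-fold lower in 932 in RPM, and with 1.95 RPM in 932 control against 138 in HY control it was 70.7-fold lower. The log2 ratios were -5.62 [-7.06 to -5.36] and -5.56 [-7.10 to -5.33], so the gap was the same size with and without heat.

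DnaJ-3 had the opposite gap. It read 14.1 RPM in 932 heat against 1.17 in HY heat, a log2 ratio of 2.80 [2.49 to 4.95], and 15.3 RPM in 932 control against 1.03 in HY control, a ratio of 3.01 [2.71 to 5.37]. In RPM it was 12.0-fold higher under heat and 14.9-fold higher under control. Cdc37 was 2.54-fold higher in 932 control than in HY control, with a log2 ratio of 1.19 [0.71 to 2.01], and 7.22-fold higher in 932 heat than in HY heat, with a ratio of 2.52 [2.15 to 3.63].

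Other genes were listed at 0 in both libraries of 1 variety. The chaperonin beta subunit (BGIBMGA001206) was listed at 0 in 932 heat and 932 control and read 1.17 RPM in HY heat and 1.21 in HY control. The chaperonin BGIBMGA006263 was likewise listed at 0 in 932 and read 1.17 RPM in HY heat and 2.24 in HY control. The cyclophilin BGIBMGA002786 was listed at 0 in 932 and read 4 RPM in HY heat and 2.41 in HY control. With Fkbp13 this made 4 of 34 genes, or 11.8%, against 4.17% of all genes above the floor. The opposite was found for 1 gene, or 2.94%, against 3.24% of all genes. It was the isomerase E BGIBMGA003414, spliceosome-associated in human, which read 2.06 RPM in 932 heat and 1.30 in 932 control and was listed at 0 in both HY libraries. All of these values stood for 24 tags or fewer.

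The remaining gaps between varieties reached 2-fold under 1 condition. Under heat the HSP70-binding protein was 4.21-fold and the cyclophilin-like protein BGIBMGA002429 2.32-fold higher in 932 than in HY, with log2 ratios of 1.97 [1.65 to 2.51] and 1.13 [0.73 to 1.71], and under control the ratios were 0.36 [-0.30 to 1.16] and -0.04 [-0.70 to 0.60]. DnaJ-20 had log2 ratios of 1.44 [1.06 to 2.07] under heat and 0.74 [0.39 to 1.17] under control. DnaJ-26 had -0.28 [-0.56 to -0.01] under heat and -1.08 [-1.48 to -0.77] under control, and DnaJ-1 had 0.13 [-0.69 to 1.00] and 1.04 [0.47 to 2.07]. The ratios of DnaJ-2 were -1.06 [-2.65 to -0.36] under heat and -0.94 [-5.50 to 0.02] under control. The intervals of DnaJ-20 and DnaJ-26 lay on 1 side of 0 under both conditions, and those of the other 4 genes under 1 only. Relative to the median gene DnaJ-1 was at 0.99 under control and DnaJ-2 at -0.80 under heat, both short of 2-fold. The HSP70-interacting protein BGIBMGA004182 and Fkbp13, both listed at 0 in 932 heat, were also counted lower in 932 under heat alone.

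**Figure D4:**
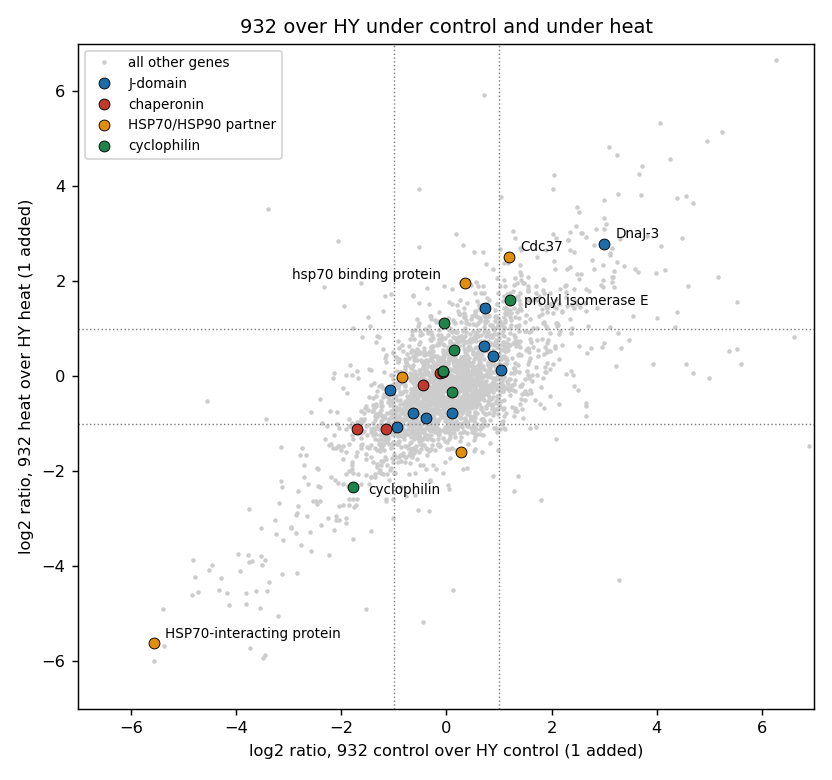
Log2 ratio of 932 over HY, with 1 added, under control (across) and under heat (up) for 2556 genes above the floor in both comparisons, with the 26 folding helpers coloured by class; dotted lines mark 2-fold and 5 genes lie outside the axes. The HSP70-interacting protein lies at -5.56 and -5.62 and DnaJ-3 at 3.01 and 2.80.

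Across the 26 genes Pearson's r between the variety ratios under control and under heat was 0.89 and Spearman's rho 0.80. Across 2556 genes they were 0.69 and 0.60. The HSP70-interacting protein BGIBMGA010635 was the lowest and DnaJ-3 the highest of the folding helpers in both comparisons. Pearson's r was not computed without them. As with the heat ratios, genes share the libraries and are not replicates.

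The chaperones that these genes serve, and co-chaperones of other names, were taken from lists by product name. Of 14 heat shock proteins above the floor in 932, 7 were at least 2-fold higher in 932 heat and none lower, and of 16 in HY, 7 were higher in HY heat and none lower. Of all genes above the floor, 11.1% were higher and 9.86% lower in 932, and 14.1% and 4.56% in HY. The counts of these lists were not centred on the median gene. Both counts of 7 include BGIBMGA007349, the chaperonin that was not taken in. More than 1 gene was named as an HSP90, the chaperone that Cdc37 serves. Hsp90 (BGIBMGA004612) read 35.2 RPM in 932 heat against 0.81 in 932 control. In HY it read 16.3 RPM in heat against 3.97 in control. The HSP90 beta gene BGIBMGA012753 changed less, at 298 RPM in 932 heat against 193 in 932 control. In HY it read 162 RPM in heat against 132 in control. Its log2 ratios were 0.63 [0.52 to 0.74] in 932 and 0.30 [0.16 to 0.44] in HY, short of 2-fold in both. Heat shock protein 70-3 (BGIBMGA007950) read 39.8 RPM in 932 heat against 13.2 in 932 control, and 10.3 RPM in HY heat against 12.2 in HY control. Heat shock protein 70-14 (BGIBMGA006574) read otherwise, at 6.52 RPM in 932 heat against 6.19 in 932 control and 15.3 RPM in HY heat against 5.52 in HY control. The cognate Hsc70-4 (BGIBMGA002381) read 1144 RPM in 932 heat against 746 in 932 control, a log2 ratio of 0.62 [0.56 to 0.67]. In HY it read 946 RPM in heat against 596 in control, a log2 ratio of 0.67 [0.61 to 0.73]. Heat shock proteins 70-3 and 70-14 were picked once their values had been seen. Their unlike patterns therefore say nothing about the HSP70 genes as a set.

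Among 8 other co-chaperones and folding factors, 2 were above the floor in each variety, both at least 2-fold higher in 932 heat, and none of the 2 in HY was. The shares of all genes are those given beside the heat shock proteins, for this list and the next. The p23-like protein (BGIBMGA006376), which binds HSP90 in its closed state, read 43.4 RPM in 932 heat against 14.0 in 932 control, and 18.2 RPM in HY heat against 13.6 in HY control. The log2 ratio was 1.56 [1.27 to 2.00] in 932 and 0.39 [-0.02 to 0.85] in HY. The other one in 932, the STIP1-like protein BGIBMGA007003, read 1.20 RPM in 932 heat and was listed at 0 in 932 control. Of the folding genes of the endoplasmic reticulum, none of 3 passed 2-fold in 932. In HY 1 of 2 was lower, the lectin chaperone calreticulin (BGIBMGA000475), at 2.33 RPM in HY heat against 10.2 in HY control, while it read 19.4 RPM in 932 heat against 15.2 in 932 control. No listed gene was named as a heat shock factor.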

How the data were processed

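RNA from the midgut was extracted with Trizol and sequenced after an Illumina library preparation, per the labels' protocols. The deposited values, called normalized TPM per the file headers, behave as RPM, tags for every 1000000 tags: the authors' table has 2 decimals, and 100% of values above 0 were whole numbers of tags within 0.0051 RPM at the totals found, the lowest being 2 tags. At other totals at most 44.7% were. A value of 0 can therefore be 0 or 1 tag. What aligned and counted the tags, and on which build, is not given in the sources used here. Gene symbols came from a RefSeq table of assembly ASM3026992v2 through the accession of the hit, for 14 of 15 RefSeq hits. No sequence of the genes was used here.

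A comparison took in genes that reached 1 RPM in either library, or in any of the 4 for the difference of the heat ratios. The shares of all genes with intervals apart from 0 and past 2-fold after centring were added once the data had been seen. Ratios, counts, exact (Clopper-Pearson) intervals and alternatives were computed over all 5558 gene models and tested on simulated data. With 1 library per group no p-value was computed. The genes and lists were chosen with earlier results of these data known. Named with values in all libraries were genes of at least 3 RPM past 2-fold in a comparison and the 2 with the highest mean of each class, and further ones in short. Genes of other lists were to meet the same limits after heat, which was not kept to throughout. Of the heat shock proteins, Hsp90 and heat shock proteins 70-3 and 70-14 were picked after their values were seen, as was the STIP1-like protein. Others that met the limits are not described, among them Hsp19.9 and Hsp23.7, with log2 heat ratios of 4.63 and 3.93 in 932. The HSP90 beta gene, short of 2-fold after heat, was also added once its values had been seen. Hsc70-4, likewise short of 2-fold, was given outside these limits. Alternatives were centring on the median gene, totals without the 20 most abundant genes, other floors, other added values and 4-fold; tag numbers with 0.5 added came after the data had been seen. The scripts ran on scipy 1.17.1, pandas 2.3.3, numpy 2.4.6, matplotlib 3.10.9 and Python 3.11.15.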

Additional observations from a re-analysis of the deposited data

How the results depend on the processing

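No paired analysis was possible because each comparison sets 1 library against 1, which also leaves no library to leave out. A heat effect over both varieties, with variety as a block, would take the difference between varieties as error and was not run. Log2 ratios of single genes were recomputed for the 2 most abundant genes of each class and for genes past 2-fold with at least 3 RPM. Of these, 355 values stayed close and 23 moved, and none past 2-fold changed sign. A change of floor cannot alter the ratio of a gene, so the values at other floors were the same by construction. The limit for close was also wide. The cyclophilin-like protein BGIBMGA002429 went from 0.25 to -0.08 in HY with centring and was counted as close. This tally therefore does not show that the ratios were stable. Tag numbers with 0.5 added were run for the counts only. Of the counts and medians, 77 values stayed close and 51 moved. Medians of the genes all moved by less than the median half-width of a single gene's counting interval, 0.89 to 1.38 by comparison. That is a wide limit for a median over genes and does not show that medians were stable. Centring took them from 0.13 to 0.11 after heat in 932 and from 0.25 to -0.08 in HY. It took 932 over HY from -0.04 to -0.09 under control and from -0.01 to 0.24 under heat. The difference of the responses went from -0.02 to 0.30. Counts are given as higher and lower. After heat in 932 (7 and 1) they were 3 and 0 at a 10 RPM floor, 1 and 0 with 10 added, 1 and 0 at 4-fold, with 3 lower for 0.1 added and 2 lower with tag numbers. After heat in HY (5 and 1) they were 1 and 2 with centring, and 0 and 0 at a floor of 10, with 10 added and at 4-fold, with 0 lower for tag numbers. For 932 over HY under control (4 and 5) they were 2 and 2 with a floor of 10, 7 and 9 with 0.1 added, and 1 and 1 with 10 added and at 4-fold. For 932 over HY under heat (6 and 7), 3 were lower with centring and 1 with a floor of 10, and counts were 3 and 1 with 10 added and 2 and 2 at 4-fold. For the difference of the responses (3 and 3) they were 7 and 1 with centring, 7 and 7 with 0.1 added, 1 and 0 with 10 added, 0 and 0 at 4-fold, and 0 were lower with a floor of 10. The 3 genes higher after heat in both varieties became 1 with centring and 0 at a floor of 10, with 10 added and at 4-fold. The 3 higher in 932 under both conditions became 1 with 10 added and at 4-fold. The 4 lower in 932 under both conditions became 2 with centring and with tag numbers, and 1 at a floor of 10, with 10 added and at 4-fold. These last 3 counts, and tag numbers as a setting, were chosen once the data had been seen. Adding 10 shrinks every ratio of a low gene by construction. For the other moves the cause was not tested. At 0.163 to 0.172 RPM a tag, depth limits every value near 1 RPM to a few tags.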
